A study of Bos taurus with 2 samples.

Results

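The genes described here make cholesterol, sense its level or move it between compartments of the cell. They were chosen by name: a probe belonged to the set where the array gives it 1 of 32 listed gene symbols. Of these names, 29 were on the array, with 68 probes, out of 32428 gene names and 51279 probes in all. SC4MOL and SC5D are other names of MSMO1 and SC5DL, which were found, and STARD4 was not analysed here. The rule itself used gene names and no measured value, but the list of names was drawn up with earlier results of these data known.

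Testis RNA of crossbred bulls was compared with testis RNA of Zebu bulls, to ask which transcripts differ in abundance between both kinds of bull. The crossbred group held 3 Holstein Friesian crossbred bulls (Bos taurus x Bos indicus). The Zebu group held 3 Tharparkar bulls (Bos indicus), and all bulls were 24 months old. RNA of the right testis was mixed in equal amounts by group and labelled with Cy3, a green fluorescent dye. Each pool was hybridized to 1 array of 60-base probes designed for Bos taurus. With 1 array of pooled RNA per group, the spread between bulls is not measured and no difference can be tested. A level is the log2 signal of a probe minus the 75th percentile of its array, so that 0 is the signal that 75% of probes lie under, and differences are given on that log2 scale as crossbred minus Zebu. A gene was read from its brightest probe, and for the cholesterol genes the other probes are given beside it.

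Cholesterol is built from acetyl-CoA. The first enzymes make mevalonate and turn it into isoprenoid units, which are joined to farnesyl diphosphate. Squalene synthase commits that product to sterols, squalene is epoxidized and closed to the first sterol, lanosterol, and a last series of enzymes removes methyl groups, moves double bonds and reduces them until cholesterol is left. The factor SREBF2 switches on most of these genes when sterol is scarce: SCAP carries it out of the endoplasmic reticulum, and INSIG1 and INSIG2 hold it there when sterol is plentiful. In the testis, Leydig cells use cholesterol for androgens, Sertoli cells and germ cells need it for membranes, and some sterol intermediates collect in the germ cells.

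The probes are the only error measure between a gene's readings, so some of their sequences are shown first, as the deposited files give them, 5′ to 3′. Positions come from the annotation of the array, on the HGSC Btau_3.1 build. FDPS and EBP are shown because all probes of these genes gave the same direction, the former higher and the latter lower on the crossbred array. The FDPS probe starts at base 699 of its transcript and lies at chr3:16650917-16651077 on the minus strand, where 161 bases of genome hold its 60 bases, so that it crosses an intron. Its capitals mark the codons of an aspartate-rich motif that binds the magnesium and diphosphate of the substrate. The EBP probe starts at base 524, at chrX:55805544-55806193 on the minus strand, and its 60 bases are spread over 650 bases of genome.

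FDPS, from base 699: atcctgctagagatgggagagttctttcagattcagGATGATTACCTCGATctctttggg

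EBP, from base 524: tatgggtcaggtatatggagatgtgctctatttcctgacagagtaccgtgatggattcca

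MSMO1 is shown because its probes gave a small difference outside a dark patch of the crossbred array and a large one inside it. The probe below, outside the patch, starts at base 873 and lies at chr17:494331-494390 on the minus strand.

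MSMO1, from base 873: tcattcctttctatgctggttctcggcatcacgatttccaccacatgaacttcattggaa

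HMGCS1, LSS and SREBF2 are shown because their upstream probes went against the brightest probe of the gene or far past it. The HMGCS1 probe starts at base 586 and lies at chr20:33439105-33439164 on the plus strand, and its capitals mark the codon of the catalytic cysteine. The LSS probe starts at base 2091, at chr1:148839212-148839271 on the minus strand. The SREBF2 probes start at bases 1237 and 2496, at chr5:120015413-120015472 and chr5:120033265-120033324, both on the plus strand.

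HMGCS1, from base 586: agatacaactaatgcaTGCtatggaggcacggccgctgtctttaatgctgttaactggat

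LSS, from base 2091: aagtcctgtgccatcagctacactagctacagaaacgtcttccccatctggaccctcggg

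SREBF2, from base 1237: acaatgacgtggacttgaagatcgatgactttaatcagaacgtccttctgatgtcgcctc

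SREBF2, from base 2496: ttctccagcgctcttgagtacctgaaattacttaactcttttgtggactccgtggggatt

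Cholesterol genes gave signal above background on both arrays, and few of them had a large difference. By the mark of the scanner software, all 29 stood well above background in either pool. None was higher on the crossbred array by 1.5 or more, the log2 threshold used here, which 7.12% of 24751 detected transcripts passed. Only HSD17B7 was lower by that much, against 2.92% of transcripts, and its probe lay in a dark patch of the crossbred array. At a log2 difference of 1, the counts were again 0 higher, against 12.8% of transcripts, and 1 lower, against 8.87%.

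Smaller differences leaned towards lower signal on the crossbred array. The median over the 29 genes was -0.31, beside -0.04 over the 22842 transcripts with both readings well above background, and 19 genes were below 0 and 10 above. Among all these transcripts 52.3% were below 0, and among the cholesterol genes 65.5%. At a linear fold of 1.5, 10 cholesterol genes were lower, or 34.5% of them, beside 22.2% of the 24751 transcripts detected on either array. Only FDPS, FDFT1 and ABCA1 were higher by that fold, or 10.3% of the genes beside 21.4% of those 24751. With normexp background correction ABCA1 gave 0.41, and with quantile normalization FDPS gave 0.57, both short of that fold. The median size of a difference, with no regard to its direction, was 0.53 for the cholesterol genes and 0.47 for all.

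Measures of error of 2 kinds were available in place of replicates. The SD of a difference between spots of the same probe was 0.19 for probes with a level over 0, 0.22 from -3 to 0 and 0.36 under -3, over 5869 probes. Each of the 68 cholesterol probes had 1 spot, so this SD was taken from other probes, with no spot in the dark patch. By this measure 13 of the 29 genes were lower by more than 2 SD, 3 were higher by more than 2 SD and 13 lay within it. Of all transcripts 26.0% were lower and 23.9% higher by the same rule. The SD between different probes of a gene was larger, at 0.48 over 8102 genes and 0.44 over 23 cholesterol genes, and only HSD17B7 was beyond 2 of the former. Both measures leave out labelling, pooling and animals. How well the Bos taurus probes match the sequence of each group was not tested.

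**Figure D1:**
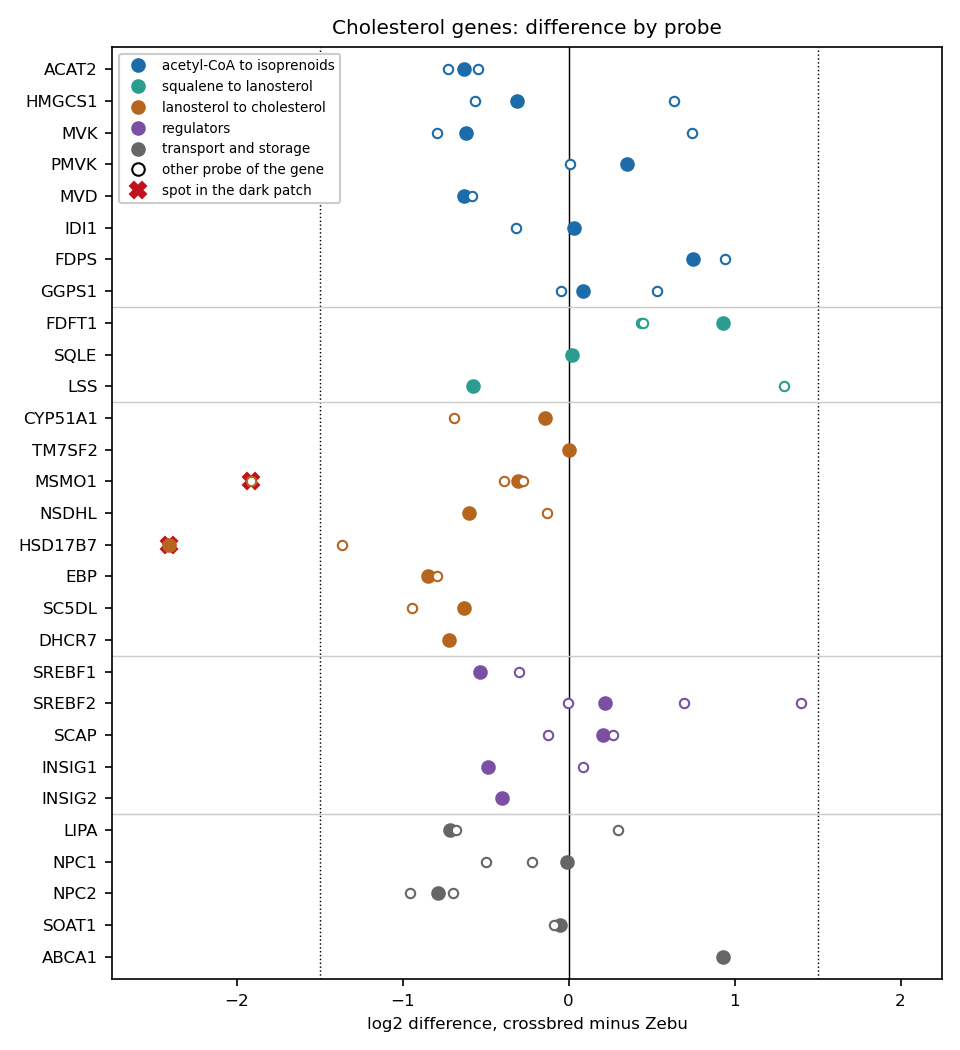
Log2 difference between the crossbred and the Zebu array (horizontal axis) for each probe of the cholesterol genes (vertical axis) that was well above background on both arrays. Filled points are the brightest probe of a gene, open points its other probes, red crosses mark the 2 spots in the dark patch, and dotted lines stand at -1.5 and 1.5; points past a dotted line occur only in the dark patch, and the genes from lanosterol to cholesterol lie mostly left of 0.

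The 8 enzymes from acetyl-CoA to isoprenoids were split, with 4 above and 4 below 0 and a median of -0.14. FDPS, which makes farnesyl diphosphate, had the largest positive difference of them. Its level was 4.65 in the crossbred pool and 3.90 in the Zebu pool, a difference of 0.75 or 1.68-fold. The intron-crossing probe printed above read 2.89 and 1.94, a difference of 0.94. Both FDPS probes were thus higher on the crossbred array by more than the spread between spots. GGPS1, the neighbouring enzyme that makes geranylgeranyl diphosphate, stood at 2.20 and 2.11, with differences of 0.09, 0.53 and -0.04 over its probes. The first and the last of these GGPS1 probes share 55 bases, and the spots around the first had a median difference of 0.91.

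Enzymes that handle mevalonate differed in the direction of their brightest probes, but those of PMVK and IDI1 lay within 2 SD between spots. MVK, which adds the first phosphate, had a level of 2.42 in the crossbred pool and 3.04 in the Zebu pool, a difference of -0.62. Its probe from base 736 gave -0.79, whereas a probe designed on another transcript record, gave 0.75. PMVK, which adds the second phosphate, read 0.79 and 0.44, and its probes gave 0.35 and 0.01. MVD, the decarboxylase that follows, read -1.58 and -0.95, and its probes gave -0.63 and -0.58. The MVD probes thus lay within 0.05 of each other, while those of MVK ranged over 1.54. IDI1, which isomerizes the product, was level at -0.08 and -0.12, with differences of 0.03 and -0.31.

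The steps before mevalonate are read by ACAT2 and HMGCS1. ACAT2, the thiolase that joins acetyl-CoA units, had a level of -1.80 in the crossbred pool and -1.17 in the Zebu pool, and its 3 probes gave -0.63, -0.54 and -0.73. HMGCS1, which makes HMG-CoA, read 0.76 and 1.08, a difference of -0.31. The second downstream HMGCS1 probe gave -0.57, and the upstream probe over the catalytic codon, at -2.27 and -2.91, gave 0.64. The direction for HMGCS1 therefore depended on the probe, and that for ACAT2 did not.

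Between squalene and lanosterol there are 3 enzymes, and each did something else. FDFT1, squalene synthase, had one of the largest positive differences of all cholesterol genes, at 4.16 in the crossbred pool and 3.23 in the Zebu pool, a difference of 0.93 or 1.90-fold. Its other probes gave 0.44 and 0.45, so that all 3 were higher on the crossbred array. SQLE, the epoxidase after it, was the same on both arrays within the spread between spots, at 2.85 and 2.83. LSS, which closes the rings, read -1.36 and -0.78 in its brightest probe, a difference of -0.57. The LSS probe printed above went the other way, at -2.71 and -4.01, a difference of 1.30. This was the widest disagreement between probes of any cholesterol gene, 1.87, and no direction can be given for LSS.

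Among the groups of the 29 cholesterol genes, the 8 enzymes from lanosterol to cholesterol had the lowest median, -0.61, or -0.62 without the marked patches. Below 0 were 7 of them, beside 52.3% of all transcripts well above background on both arrays. Lower by a linear fold of 1.5 were 5, beside 22.2% of transcripts detected on either array. Those 5 were HSD17B7, read here from a spot in the dark patch, EBP, DHCR7, SC5DL and NSDHL. EBP, the isomerase that moves the double bond of the ring, had a level of -0.55 in the crossbred pool and 0.30 in the Zebu pool, a difference of -0.85. Its other probe, printed above, gave -0.79, from -4.28 and -3.49. SC5DL, the desaturase that follows EBP, read -0.75 and -0.11, a difference of -0.63, and its other probe gave -0.95. DHCR7, which completes cholesterol, was read by 1 probe, at 0.39 and 1.12, a difference of -0.72. These late enzymes were thus lower on the crossbred array by 1.55- to 1.80-fold in their brightest probes.

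Of the enzymes that strip the methyl groups, NSDHL, the dehydrogenase, read -1.44 in the crossbred pool and -0.84 in the Zebu pool, and its probes gave -0.60 and -0.13. CYP51A1, the demethylase that acts on lanosterol, read 0.64 and 0.78, and its probes gave -0.14 and -0.69. MSMO1, the methylsterol oxidase, read 3.28 and 3.58, a difference of -0.31. The MSMO1 probes from bases 873 and 957 gave -0.27 and -0.39, so that the 3 probes outside the dark patch lay within 0.11. TM7SF2, a sterol reductase with 1 dim probe, was level at -3.87 and -3.88.

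HSD17B7, the ketosteroid reductase of this stretch that can also make estradiol from estrone, had the largest difference of the 29 genes. Its brightest probe lies at chr3:7225133-7225192 and read -2.78 in the crossbred pool and -0.37 in the Zebu pool, a difference of -2.41 or 5.30-fold lower. That spot was in the dark patch, rows 54 to 99 and columns 35 to 46, where the median difference over 408 spots above background was -1.37 and 47.1% were lower by 1.5. Its 18 nearest spots had a median of -2.79. The second HSD17B7 probe, at chr3:7225241-7225300 and on an unmarked place, read -3.52 and -2.15, a difference of -1.37 or 2.58-fold lower, with a median of -0.33 around it. HSD17B7 was thus the lowest gene by its unmarked probe as well, but not past the threshold of 1.5.

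The other spot in the dark patch was the MSMO1 probe from base 1062. It read -1.58 in the crossbred pool and 0.33 in the Zebu pool, a difference of -1.91, with a median of -2.19 around it. The remaining MSMO1 probes stood between -0.39 and -0.27. No cholesterol probe lay in the bright patch. One more probe had surroundings beyond 1: the brightest SC5DL probe gave -0.63 in a place where the nearest spots had a median of 1.69. Without such spots SC5DL was read from its other probe, at -0.95.

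**Figure D2:**
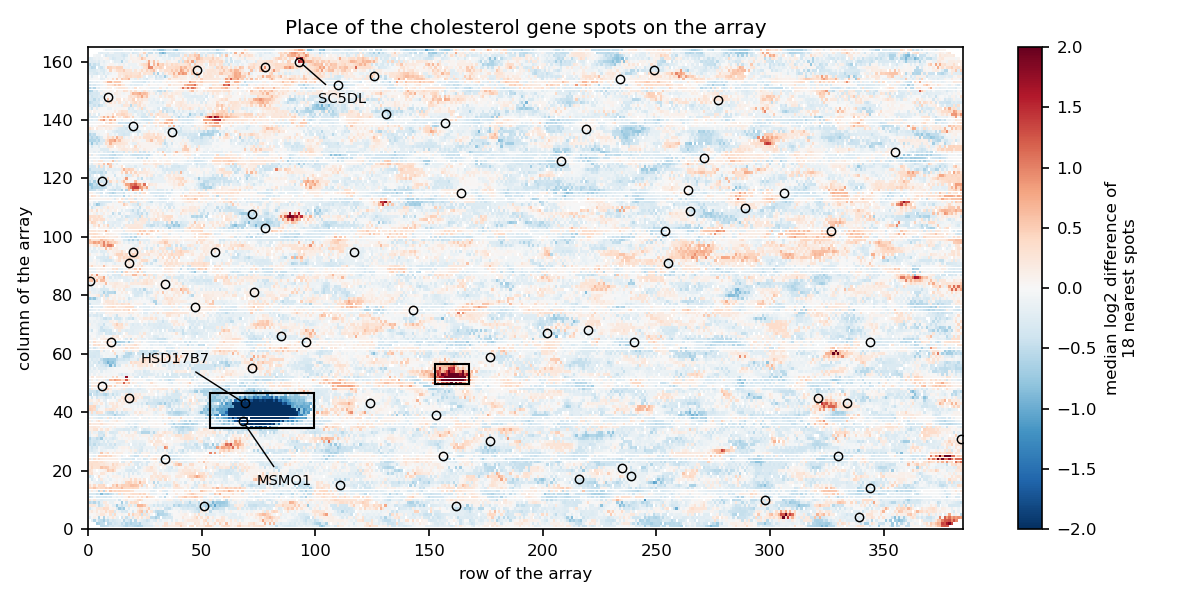
Place of the cholesterol gene spots (open circles) on the array, by row (horizontal axis) and column (vertical axis). Colour is the median log2 difference, crossbred minus Zebu, of the 18 nearest spots; boxes outline the dark patch, which holds 1 HSD17B7 and 1 MSMO1 spot with local medians of -2.79 and -2.19, and the bright patch, which holds none, and SC5DL marks a spot with a local median of 1.69.

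The 5 regulators had a median of -0.40, and none reached a linear fold of 1.5. SREBF2, the main activator of the pathway, had a level of 5.02 in the crossbred pool against 4.80 in the Zebu pool, or 0.22 higher. Its probe nearest the end of the transcript was level, at 2.990 in the crossbred pool and 2.995 in the Zebu pool. The 2 upstream SREBF2 probes printed above were dim and gave larger differences, 0.70 from -4.54 and -5.24, and 1.40 from -3.77 and -5.17. None of the 4 SREBF2 probes was lower by more than 0.01. SREBF1, the related factor of fatty acid synthesis, read -1.41 and -0.88, and its probes gave -0.53 and -0.30.

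SCAP, the escort of SREBF2, stood at 4.39 in the crossbred pool and 4.18 in the Zebu pool, with differences of 0.21, 0.27 and -0.13 over its probes. INSIG1, a retention protein and itself a target of SREBF2, read 0.54 and 1.02, a difference of -0.49. The spots around that INSIG1 probe had a median of -0.50, and a second, very dim probe gave 0.08. INSIG2, its relative, was read by 1 probe at -1.73 and -1.33, a difference of -0.40. In their brightest probes the activator and its escort were slightly higher and both retention proteins lower, each by less than 2 SD between probes. SREBF2, SCAP and INSIG2 also lay within 2 SD between spots. Single probes of SREBF2, SCAP and INSIG1 departed from these directions. With quantile normalization SREBF2 gave 0.03 and SCAP -0.03, so that no direction can be given for SCAP.

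Among the 5 genes of transport and storage, the proteins of the lysosome differed. NPC2, which takes cholesterol from lysosomal vesicles, had a level of 1.58 in the crossbred pool and 2.36 in the Zebu pool, and its 3 probes gave -0.79, -0.70 and -0.95. NPC1, the membrane protein that receives cholesterol from NPC2, was level in its brightest probe, at 2.93 and 2.94, and its others gave -0.50 and -0.22. LIPA, the lipase that frees cholesterol from its esters, read -1.91 and -1.20, a difference of -0.71. Of the other LIPA probes, one gave -0.68, another 0.30, and for the remaining probe, not well above background in the crossbred pool, the bound was 1.25-fold lower there or more. NPC2 was therefore lower in every probe, and LIPA in all but 1.

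SOAT1, which esterifies cholesterol for storage, was the same on both arrays within the spread between spots, at 1.35 and 1.40, and its second probe gave -0.09. ABCA1, the pump that exports cholesterol, had a positive difference as large as that of FDFT1, 0.93 or 1.91-fold, at the low levels of -3.71 in the crossbred pool and -4.65 in the Zebu pool. The SD between spots was 0.36 at such signal. Its other probe was not well above background on either array.

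**Figure D3:**
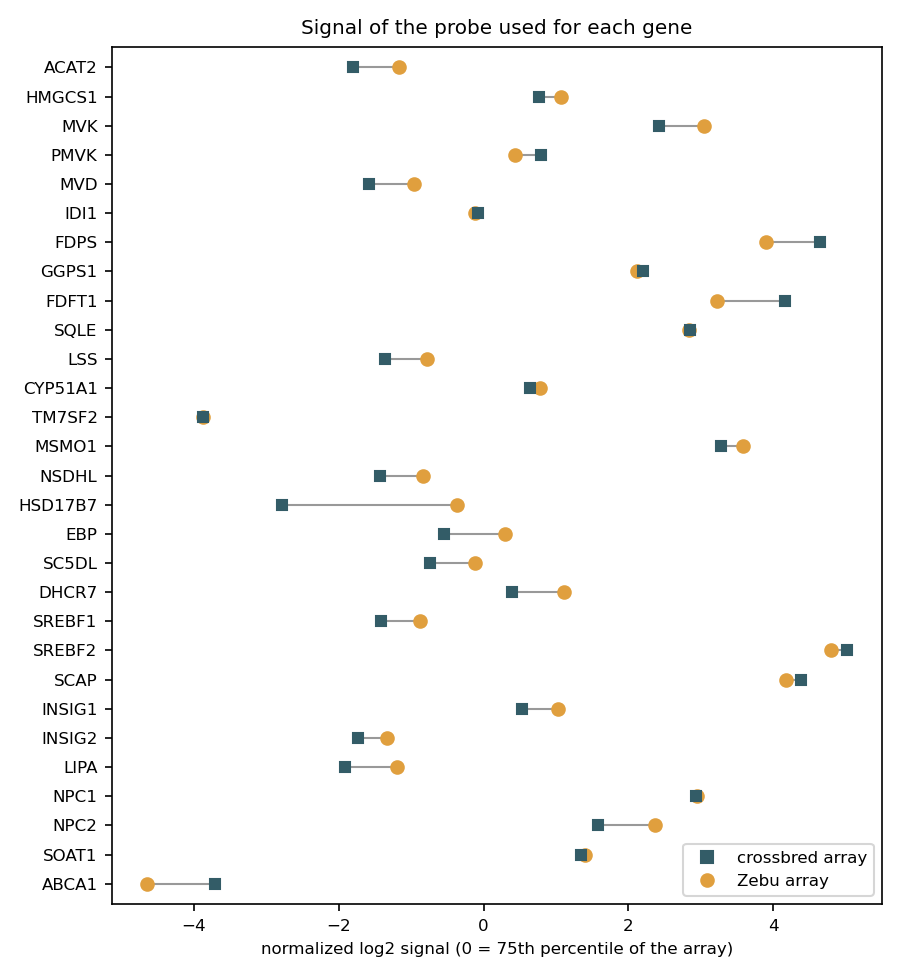
Normalized log2 signal of the brightest probe of each of the 29 cholesterol genes on the crossbred array (squares) and the Zebu array (circles), 1 array per group, so that no error bar can be drawn. The lines joining both arrays are short beside the range over genes, the longest is that of HSD17B7 (-2.78 and -0.37), and signals of different probes cannot be compared as amounts.

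Probes of a gene disagreed about as much as elsewhere on the array. Outside the marked patches, 64 probes were well above background on both arrays, with 41 below and 23 above 0 and a median of -0.25. Of the 23 genes with several such probes, 11 were lower in all, 3 were higher in all and 9 went both ways. The higher ones were FDPS, FDFT1 and PMVK. The median range between probes was 0.40, beside 0.39 over all genes, and 5 of the 23 genes, or 21.7%, had a range over 1, beside 16.6% of all genes. Those 5 were LSS, MVK, SREBF2, HMGCS1 and LIPA.

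Probes of a transcript were also compared by their place in it. Labelling started from the poly(A) tail, at the end of the transcript. In 14 of 22 cholesterol transcripts with probes apart, the difference between the pools was higher in the probe nearest the start than in the one nearest the end, and in 8 it was lower. Over all 7207 such transcripts the former held for 57.6%, with a median of 0.08, and over the cholesterol transcripts for 63.6%, with a median of 0.06. The widest gaps were 1.20 for HMGCS1, 1.02 for LIPA and 0.70 for SREBF2.

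The rest of the pathway, taken from a list of 33 other genes that complete synthesis, uptake, regulation, export and oxidation of cholesterol, also lay mostly below 0. Of the 29 well above background on both arrays, 23 were below 0 and 6 above, with a median of -0.19. Over all transcripts 52.3% were below 0, with a median of -0.04. The 4 sterol oxidation genes among the 29 were all below 0 in their brightest probes. Their median was -0.63, about as low as that of the enzymes from lanosterol to cholesterol, -0.61.

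At 1.5, 2 of the 33 genes of this list were higher, among them LIPE, beside 7.12% of all detected transcripts. Counted as lower, by its deposited signal, was only ABCG5, beside 2.92% of transcripts. That count has no firm ground, since ABCG5, a sterol pump, was not well above background in the crossbred pool and its bound was 1.30-fold lower there or more. LIPE, the hormone-sensitive lipase that frees cholesterol from esters in the cytosol, read 2.03 and -0.60, a difference of 2.63, and its other probes gave 1.84 and 1.97. LIPE was thus higher in all 3 probes, in places with local medians between -0.28 and 0.14.

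At 1, 3 of the 33 genes were higher and 3 lower, beside 12.8% and 8.87% of all detected transcripts. Past 1 was also RNF139, a ubiquitin ligase of the endoplasmic reticulum, higher at 1.002 and 1.06 in its probes. MBTPS2, a protease that releases the active part of SREBF2, was lower, at -1.005. RNF139 fell short of 1 under several scalings. ABCG8, the partner of ABCG5, was counted there too, but it was not well above background in the crossbred pool and its bound was 1.15-fold lower or more. SCARB1, the receptor that brings high-density lipoprotein cholesterol into Leydig cells, read 2.44 and 3.25, a difference of -0.81, and its other probe well above background in both pools gave -0.39. CYP7B1, an oxysterol hydroxylase, read -2.11 and -1.33, a difference of -0.79. The other CYP7B1 probe went the other way, at least 1.37-fold higher in the crossbred pool, so that no direction can be given. CYP7A1, the rate-limiting enzyme of bile acid synthesis in liver, was not well above background on either array.

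Marker genes of testicular cell types differed between the arrays alongside the cholesterol genes. In bulk tissue, fewer cells of a type and less RNA per cell cannot be told apart. All 6 Leydig cell markers were below 0, with a median of -0.79 and a summed level, as multiples of the array's 75th percentile, of 87.8 on the crossbred array against 133 on the Zebu array. Most of that sum is INSL3, whose level was 6.25 and 6.69, a difference of -0.44. STAR, which brings cholesterol to the first enzyme of steroid synthesis, gave -0.998, CYP11A1, that enzyme, gave -0.57, and CYP17A1 and HSD3B1 gave -1.68 and -1.77. The 6 Sertoli cell markers well above background were below 0 as well, with a median of -0.996 and sums of 28.4 and 47.7, while INHBB was well above background on neither array. The enzymes from lanosterol to cholesterol thus stood on the same side as both lists, at a median of -0.61.

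Spermatogonia markers were below 0 in 6 of 6, with a median of -0.80 and sums of 24.6 and 38.4, and smooth muscle markers in 5 of 5, with a median of -0.77 and sums of 29.3 and 51.6. Spermatid markers were above 0 in 10 of 10, with a median of 1.43 and sums of 774 and 383, on the same side as FDPS and FDFT1. Spermatocyte markers were above 0 in 5 of the 5 read, with a median of 0.41 and sums of 13.0 and 10.5. Not read here were the listed markers SYCP1, SYCP2 and MLH3 of spermatocytes, SOX9 of Sertoli cells, NANOS2 of spermatogonia and MRC1 of macrophages. Of the 4 macrophage markers well above background on both arrays 3 were above 0, with a median of 0.38 and sums of 17.9 and 9.30, and CD163 was dim in the crossbred pool, not well above background. Endothelial markers were 3 above and 2 below 0, with a median of 0.08 and sums of 0.951 and 0.974. No defining marker was listed at 0, and the part of cell composition in the differences of the cholesterol genes was not tested.

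**Figure D4:**
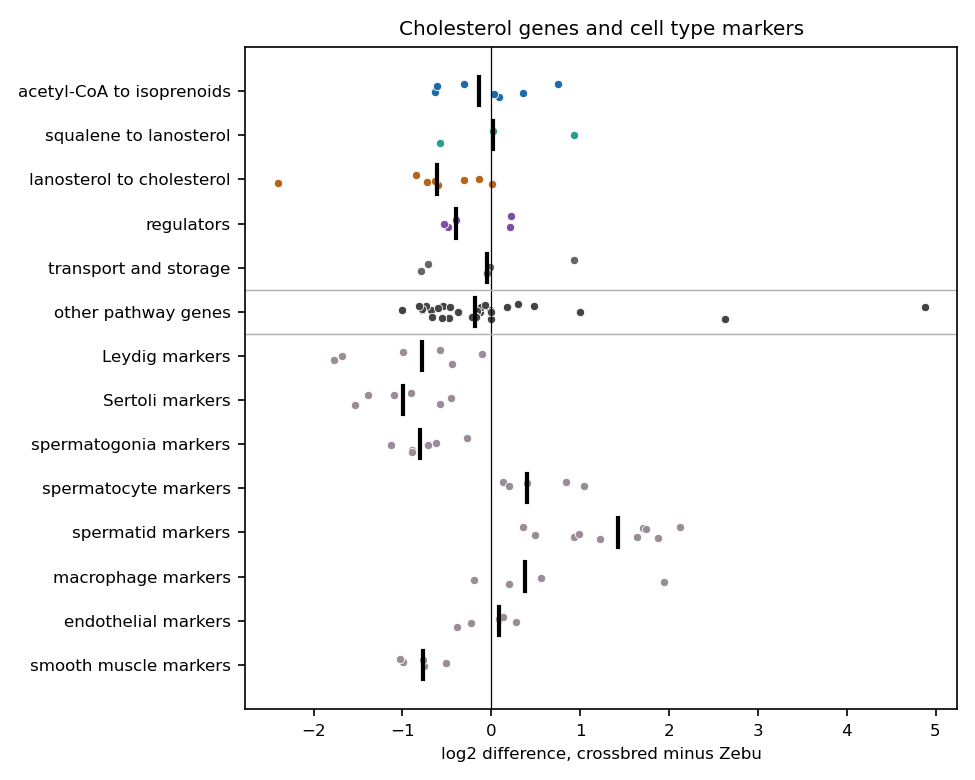
Log2 difference, crossbred minus Zebu (horizontal axis), of genes well above background on both arrays, by group of cholesterol genes, for the other pathway genes and for the cell type markers (vertical axis); each point is a gene in its brightest probe and each bar a median. The group from lanosterol to cholesterol has its median at -0.61, between the Leydig (-0.79) and the spermatocyte markers (0.41).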

How the data were processed

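Pooled testis RNA of 2 groups, crossbred and Zebu, was measured on 1 Agilent array each. The authors deposited the processed signal of each spot, an intensity that was background-subtracted per the file headers (Feature Extraction 11.5.1.1) and not normalized between arrays, and the mean and local background intensity. The authors also deposited log2 values shifted by the 75th percentile, of which 98.9% lay within 0.01 of those computed here.

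Control spots and 13 outlier spots were dropped, and saturation was marked at 0 spots. Spots of the same probe were averaged as log2 signals, less the 75th percentile of the array. It was 1176 on the crossbred and 1233 on the Zebu array, with median local backgrounds of 34 and 35.5. Of 61657 spots, 72.0% and 74.3% were well above background. The number of arrays limits the precision of all values. A bound was set against the lowest signal well above background, -5.78 and -5.94. Each gene name was taken as a transcript and read from the probe that had its highest mean log2 signal, and it was detected where either array marked that probe as well above background. A gene counted as past a threshold had to be well above background in its brighter pool.

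Every member on the array is named, and of the other pathway genes the 6 with the largest size of difference among those well above background on both arrays. Part of this list is not reported here. ABCG5, ABCG8 and CYP7A1 were named after their values were seen. Members and lists were chosen with earlier results of these data known. Names were matched to the ARS-UCD2.0 gene table, 28 as symbols and SC5DL as a synonym. The steps were tested on simulated data. The alternatives were normexp with an offset of 50, other scalings, the authors' values, other probe rules, filters and thresholds, and spots left out. Python 3.11.15, numpy 2.4.6, pandas 2.3.3, scipy 1.17.1, R 4.3.3 and limma 3.58.1 were used.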

Additional observations from a re-analysis of the deposited data

How the results depend on the processing

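The median of the cholesterol genes was below 0 under every scaling tried, from -0.42 with quantile normalization to -0.31 with normexp, while that of all transcripts stayed between -0.07 and -0.01. The genes below 0 numbered 19 to 21 of 29 under these scalings. With each gene read as the mean of all its detected probes, the median of the cholesterol genes was -0.22. HSD17B7 gave -1.38 with the marked patches left out and -1.89 as the mean of its probes, so that 0 genes were lower by 1.5 with the patches left out or, in an alternative added after the values were seen, with all spots in surroundings beyond 1 left out. At a linear fold of 1.5, 3 were higher and 10 lower. The median from squalene to lanosterol was 0.36 as the mean of all detected probes, where LSS turned from -0.57 to 0.36. Of the other pathway genes, normexp left 0 lower by 1 and 0 by 1.5, and keeping only probes well above background on both arrays left 1 and 0. Without spots in shifted surroundings, 1 was higher by 1.5 and 1 by 1. RNF139, at 1.002, gave 0.90 with quantile normalization, 0.976 with the percentile taken over probes that both arrays mark as above background, 0.998 with the median shift or the authors' values, 0.993 without the marked patches and 0.995 without spots in shifted surroundings, which left 2, or in the last case 1, of 3 genes higher by 1. ABCA1 gave 0.41 with normexp and FDPS 0.57 with quantile normalization, and CYP7B1 turned from -0.79 to 0.13 as the mean of its probes. Of the values of 35 named genes over these alternatives, 332 moved by less than 0.28 and 18 by more. That limit is the SD between spots over all signal levels. It is wider than the 0.19 and 0.22 of the brighter probes, by which more values would count as moved. No paired analysis was possible because each group has 1 array, and no replicate could be left out. Signal limited ABCA1, TM7SF2 and the upstream SREBF2 probes, where the SD between spots was 0.36.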
